A study of Mus musculus with 2 samples.

Results

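Accessory factors of primary microRNA processing are the helicases and RNA-binding proteins that assist Drosha, the nuclear ribonuclease that cuts microRNA hairpins out of their primary transcripts. The 9 genes described here, Ddx5, Ddx17, Khsrp, Tardbp, Srrt, Ncbp1, Erh, Safb and Safb2, were chosen by symbol for that reported role, and each matched 1 of 43629 gene rows in both count files. Poly-A RNA was sequenced from mouse embryonic stem (ES) cells, pluripotent cells of the blastocyst, labelled with the genotype Drosha knockout and the strain background 129/Ola. The cells grew in serum plus LIF, a cytokine that keeps mouse ES cells in self-renewal, were untreated and were at passage 7, and the knockout was made with paired CRISPR/Cas9 per the series title. The 2 libraries, A and B, form 1 group, so no level could be set against wild-type cells. Their titles number the knockout as 1 and 2 while their source names are the same, and separate cultures are not stated, so the spread between them may be technical.

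Drosha and its partner Dgcr8 form the Microprocessor, which recognises the stem of a hairpin and cuts at its base. Ddx5 and Ddx17 are closely related DEAD-box helicases found in large Drosha complexes, while Khsrp and Tardbp bind particular primary transcripts or hairpins and favour their processing. Srrt (also called Ars2) and Ncbp1 belong to the complex on the cap of nascent RNA, Erh is a small protein that binds Dgcr8, and Safb and Safb2 are nuclear matrix proteins reported to help suboptimal hairpins that sit beside a good one. All of them also act elsewhere in RNA metabolism, such as splicing, transcription and RNA decay.

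The libraries held 29264632 (A) and 42322129 (B) gene counts, of which the 9 genes took 0.311% and 0.313%. Drosha, the gene targeted in these cells, still had 4865 and 7023 reads (166 CPM in both). These are reads over the whole gene, and which part was edited is not known from the labels, so they do not check the knockout. Where Drosha is a reference level below, it is that of RNA from the edited locus. ES cell markers were present, with 8 of 8 at 1 CPM or more in both libraries (CPM, counts scaled to a common library size), Pou5f1 at 1191 and 1166 CPM and Nanog at 516 and 514. Of 11 markers of differentiated lineages 3 reached 1 CPM and 0 reached 5 CPM in both libraries. Of 10 fibroblast markers 4 reached 1 CPM in both libraries. By the test described below, 4 of the 8 with enough reads were called lower in B, beside 0.989% of all tested genes. Among the 4 were Col3a1 (47 and 14 reads) and Col1a2 (36 and 16 reads). The better-read markers Fn1 (1522 and 1511 CPM) and Thy1 (42.9 and 43.7 CPM) were not called. Counting intervals below cover counting error only.

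All 9 genes were strongly expressed and all 9 passed the filter of 10 reads. Their median was 183.7 CPM, against 12.95 over the 18198 genes with at least 10 reads. Levels of different genes were compared in TPM, which divides reads by the length of a gene's merged exons, and here the median of the 9 genes was 132.5 TPM against 9.47 over all tested genes. Every one but Safb and Safb2 lay above Drosha, at 75.0 and 74.3 TPM, and Dgcr8, at 83.3 and 84.3 TPM. This too rests on the length used, since with the mean length of coding transcripts all 9 lay above Drosha (57.1 TPM), while Ncbp1, Khsrp, Safb and Safb2 lay below Dgcr8 (149 TPM). In bulk RNA, fewer cells that express a gene and less RNA per cell cannot be told apart.

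Ddx5 (ENSMUSG00000020719, GRCm38 chromosome 11, 106780355 to 106789185, minus strand) was the most abundant, with 29039 reads in A and 42766 in B. This came to 460 TPM in A and 465 in B, or 463 ± 3.51 (SD, n = 2), above 97.8% of genes with a read. Within a library it stood 6.13-fold (A) and 6.26-fold (B) above the RNA of the Drosha locus, or 15.5-fold and 15.8-fold with the mean length of coding transcripts. Its paralog Ddx17 (ENSMUSG00000055065, chromosome 15, 79527736 to 79546741, minus strand) had 17379 and 25701 reads, or 208 and 211 TPM. The ratio of Ddx5 to Ddx17 was 2.21 in A and 2.20 in B, so the paralogs kept nearly the same proportion in both libraries. This ratio also depends on the length: with the mean length of coding transcripts it was 3.73 ± 0.011 (SD, n = 2).

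The hairpin-binding proteins came at different heights. Tardbp (ENSMUSG00000041459, chromosome 4, 148612382 to 148627019, minus strand), an RNA-binding protein whose gene is mutated in some families with amyotrophic lateral sclerosis, had 15468 and 22936 reads, or 182 and 185 TPM. Khsrp (ENSMUSG00000007670, chromosome 17, 57021051 to 57031522, minus strand), a protein with several KH domains that also promotes decay of AU-rich mRNAs, had 5469 and 7641 reads. This gave 115.9 TPM in A and 111 in B, or 1.54-fold and 1.495-fold the level of Drosha. That ratio also depended on the length, with a mean over both libraries of 1.27 with the longest transcript and 2.02 with the mean length of coding transcripts.

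Of the cap-associated pair, Srrt was higher, by a margin that depended on the length used. Srrt (ENSMUSG00000037364, chromosome 5, 137295704 to 137307674, minus strand), which links the cap to RNA processing and decay, had 9031 and 12571 reads, or 158 and 151 TPM. Ncbp1 (ENSMUSG00000028330, chromosome 4, 46138613 to 46172403, plus strand), the large subunit of the nuclear cap-binding complex, had 4907 and 7136 reads, or 132.6 and 132.4 TPM. The ratio of Srrt to Ncbp1 was 1.16 ± 0.036 (SD, n = 2), and 1.79 ± 0.055 and 2.37 ± 0.073 with the longest and the mean coding transcript. The small partner of Ncbp1, Ncbp2, which contacts the cap itself, was lower at 81.1 and 77.7 TPM, a ratio of Ncbp1 to Ncbp2 of 1.64 in A and 1.70 in B. With the mean length of coding transcripts that ratio was 1.08 ± 0.031 (SD, n = 2), so the excess of Ncbp1 rests on the length chosen.

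By merged exon length the scaffold attachment factors were the lowest of the 9. With the mean length of coding transcripts Safb (102 TPM) lay above Ncbp1 (87.3 TPM), and Safb2 stayed lowest. Safb (ENSMUSG00000071054, chromosome 17, 56584825 to 56606294, plus strand) had 4275 and 5957 reads, or 53.8 and 51.5 TPM. Safb2 (ENSMUSG00000042625, chromosome 17, 56560965 to 56584585, minus strand) had 2299 and 2994 reads, or 25.8 and 23.0 TPM. Safb was higher in both libraries, by 2.09-fold in A and 2.24-fold in B, and under the other lengths this ratio was smaller, at 1.74 ± 0.083 and 1.37 ± 0.065 (SD, n = 2).

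**Figure D1:**
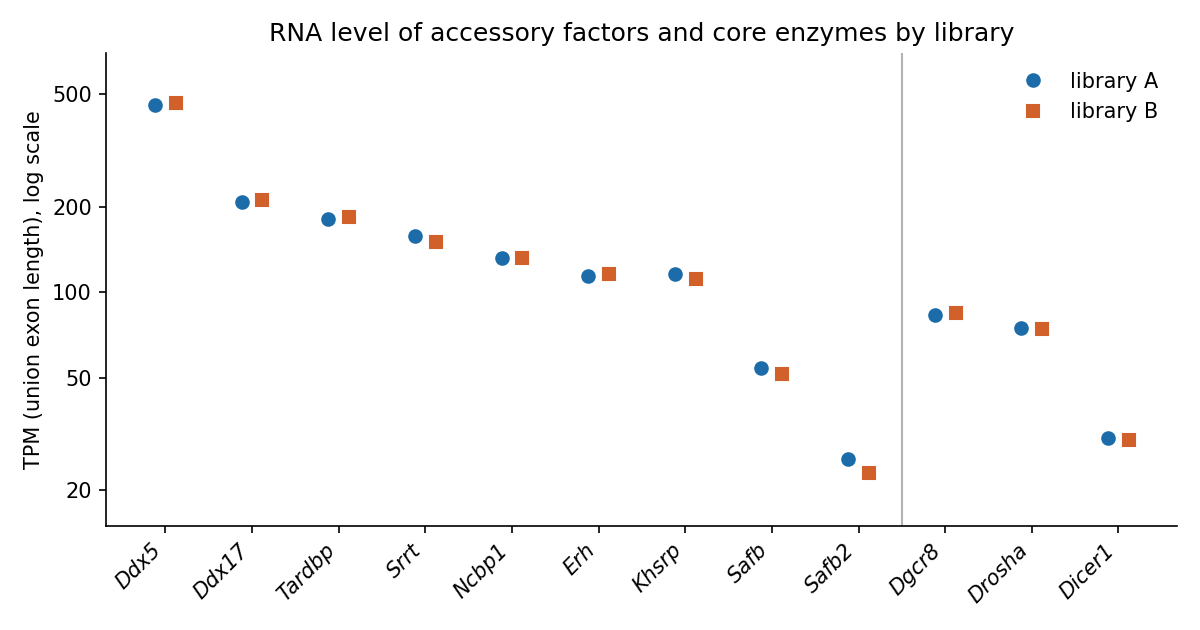
TPM (log scale, union exon length) of the 9 accessory factors, in order of their mean, and of Dgcr8, Drosha and Dicer1, with 1 point for each library. Both libraries lie close together for every gene, from Ddx5 at 460 and 465 TPM to Safb2 at 25.8 and 23.0, and Drosha is at 75.0 and 74.3.

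Erh (ENSMUSG00000021131, chromosome 12, 80634022 to 80644341, minus strand) had 3273 and 4834 reads, or 114 and 116 TPM, and Erh and Khsrp were the one neighbouring pair in the order whose libraries overlapped. The Erh row may not hold all reads that came from Erh. A gene with a single exon, Gm10131 (ENSMUSG00000063412, chromosome 8, 34111002 to 34111737, minus strand, annotated as protein coding), had 3518 and 5262 reads, more than Erh itself in both libraries. Its annotated transcript matched the Erh transcript with 4 exons at 734 of 735 aligned bases. The lone difference was T952C, counted from 1 at the 5′ end of that Erh transcript, with the Erh base first, and lies after the coding sequence.

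The first 240 bases of the Erh coding sequence, out of 312, are shown because all 312 are the same in Gm10131. Capitals mark 3 bases on each side of the 3 exon junctions of Erh, the points at which a spliced Erh transcript and the uninterrupted Gm10131 locus differ on the genome.
Erh: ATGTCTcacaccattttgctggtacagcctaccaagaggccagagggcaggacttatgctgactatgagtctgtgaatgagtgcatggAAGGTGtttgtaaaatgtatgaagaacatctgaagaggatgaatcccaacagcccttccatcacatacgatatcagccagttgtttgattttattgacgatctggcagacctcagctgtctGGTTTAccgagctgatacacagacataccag

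Of the 2656 distinct stretches of 50 bases in annotated Erh transcripts, 49.96% also occur in transcripts of other genes, 636 of them in Gm10131 and 410 in Slc39a9, which shares 459 exon bases with Erh on the opposite strand (906 and 1369 reads). A further 257 occur in Gm47879, annotated as antisense to Erh with 306 shared exon bases, which was not analysed here. With the Gm10131 reads added, a choice made with the data in view, Erh stood at 240 TPM in place of 115 and ranked behind Ddx5 alone. The sources used here do not say how the authors treated reads with several matches. If such reads were counted at each match, the 240 TPM holds them more than once. If they were left out, both rows lack them. Only counts per gene were used, so which locus the reads came from was not tested. The cells are 129/Ola, while the GRCm38 reference is C57BL/6J, and the 129/Ola sequence of these loci was not examined. The ratio of Erh to Dgcr8 in TPM, 1.37 in A and 1.38 in B without those reads, carries the same uncertainty. Its mean over both libraries was 1.56 with the longest transcript and 1.38 with the mean length of coding transcripts. In reads without a length it was 0.467 in A and 0.468 in B, so the excess of Erh rests on dividing by length.

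Ddx5 had a copy of the same kind. Gm12183 (ENSMUSG00000082454, chromosome 11, 48751867 to 48753714, minus strand), a processed pseudogene, had 2091 and 3217 reads and matched a Ddx5 transcript of 13 exons at 1821 of 1848 aligned bases, nearly all of it coding sequence. Its reads amounted to 71.3 and 76.2 CPM beside 990 and 1013 for Ddx5, so adding them changed little: Ddx5 rose to 497 TPM from 463. The share of 50-base stretches found in other genes was 14.6% for Ddx5, 0 for Ddx17, 21.004% for Tardbp, 7.41% for Safb and 6.73% for Safb2, and at most 1.89% for Khsrp, Ncbp1 and Srrt. The other annotated pseudogenes analysed here held few reads: Gm13886, a Tardbp copy, had 17 and 28, Gm13831, an Erh copy, 4 and 5, and the Khsrp copies Gm8602 and Gm13042 4 and 4 and 1 and 1.

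**Figure D2:**
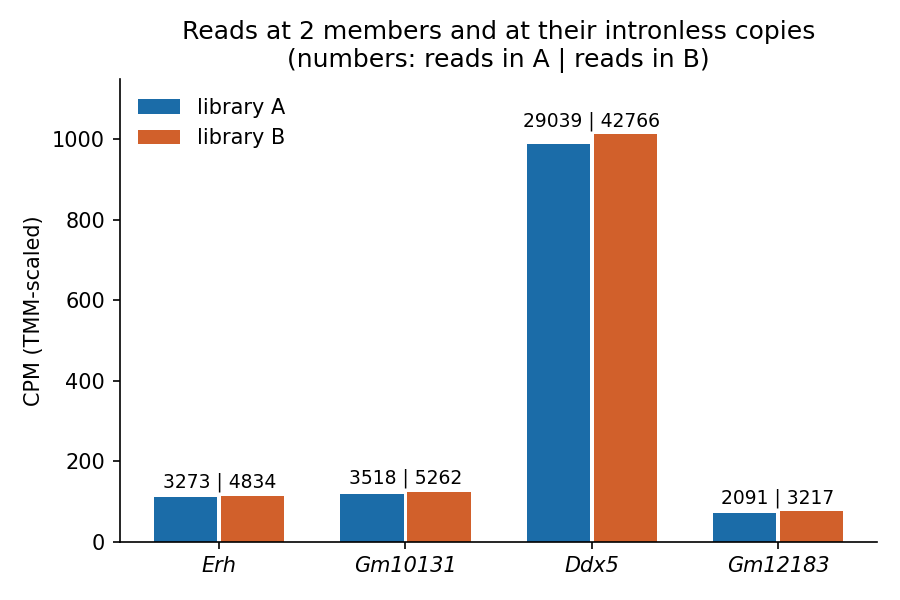
CPM of Erh and Ddx5 and of their single-exon copies Gm10131 and Gm12183, with 1 bar for each library and the read counts above. Gm10131 (3518 and 5262 reads) is above Erh (3273 and 4834) in both libraries, whereas Gm12183 (2091 and 3217) is far below Ddx5 (29039 and 42766).

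Of the 1811 shared stretches of Tardbp 1721 lay in Masp2, a gene of the lectin complement pathway that runs tail to tail with Tardbp and shares 1817 exon bases with it on the opposite strand. Masp2 had 76 and 126 reads, few beside the 15468 and 22936 of Tardbp. If strand was ignored in counting, reads over the shared bases may have been left out of both rows. The low Masp2 count therefore does not limit how many Tardbp reads may be missing. Safb and Safb2 share 567 stretches of 50 bases with each other. Overlaps on the opposite strand of Ddx17 and Ncbp1 were short: Kdelr3 shares 4 exon bases with Ddx17 (1145 and 1599 reads), Tstd2 82 with Ncbp1 (739 and 1137 reads) and Xpa 77 with Ncbp1 (215 and 335 reads). The labels describe the protocol as reverse-stranded, but whether reads were counted by strand is unknown, so reads of such partners cannot be told apart with certainty.

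Annotated microRNA genes lie inside 2 of the 9 genes, Ddx5 and Srrt, and their mature microRNAs are shown because the host and the microRNA share a transcribed strand. Capitals mark the seed, bases 2 to 8, in RefSeq sequences on GRCm38.p6. All 4 seeds differ.
mmu-miR-3064-5p: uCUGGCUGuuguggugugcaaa
mmu-miR-3064-3p: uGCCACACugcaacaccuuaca
mmu-miR-7036a-5p: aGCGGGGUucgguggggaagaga
mmu-miR-7036a-3p: cCGUCCUCauccgcuccucccag

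Mir3064 (chromosome 11, 106782693 to 106782759) lies within Ddx5 on the same strand, inside an exon of 1 of its 9 annotated transcripts and an intron of 1 other, and had 0 reads in both libraries. So did Gm25994, a second annotated microRNA gene in Ddx5. Mir7036 (chromosome 5, 137296624 to 137296688) lies within Srrt on the same strand, in an exon of 4 of its 18 transcripts and an intron of 6, and had 13 and 29 reads. A read count over a hairpin measures RNA that passes through it and not the mature microRNA, and a read that overlaps both host and hairpin may have been left out of either row.

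By merged exon length the order was Ddx5, Ddx17, Tardbp, Srrt, Ncbp1, Erh, Khsrp, Safb and Safb2. Apart from Erh and Khsrp, each neighbouring pair was separated in both libraries, but 2 libraries allow no permutation test below p = 0.5, so no neighbour was tested. The annotation moved the order more than the libraries did. With the longest transcript as length, Srrt and Erh came above Tardbp. With the mean length of coding transcripts Tardbp went from 183 to 341 TPM and above Ddx17, and Ncbp1 fell from 132.5 to 87.3 TPM, below Safb. Ddx5 was highest and Safb2 lowest under all 3 lengths, and in each library alone under merged exon length.

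**Figure D3:**
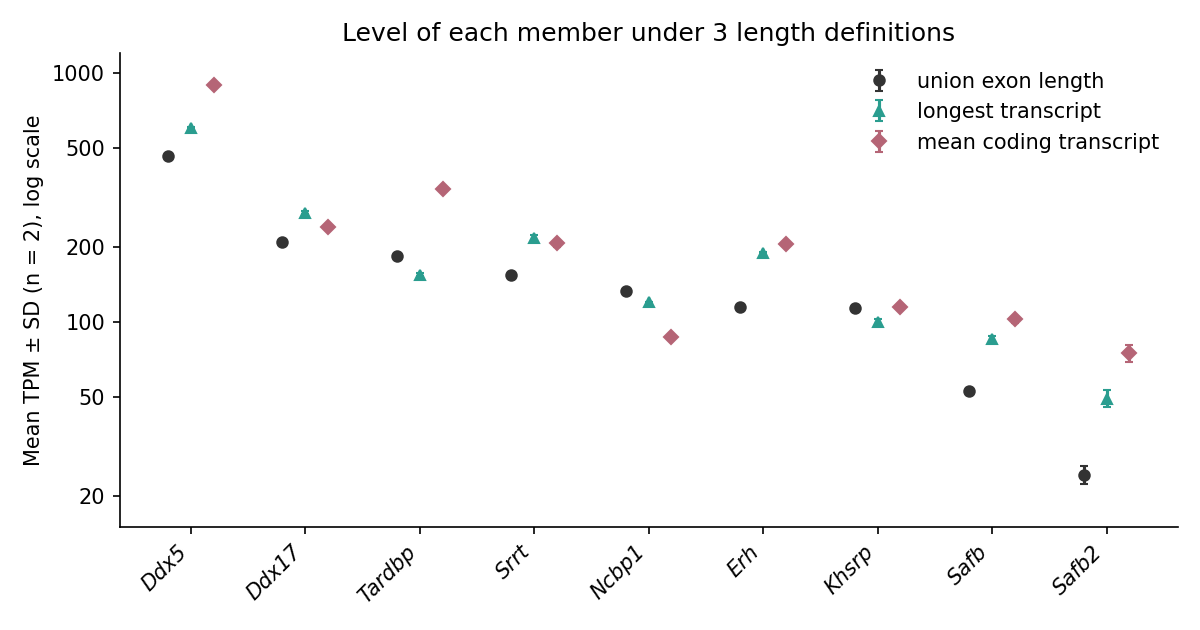
Mean TPM ± SD of the 2 libraries (log scale) for each accessory factor under 3 definitions of gene length. The choice of length moves a gene far more than the SD, by fold most of all Safb2 (24.4 to 74.99 TPM, 3.07-fold) and Tardbp (155 to 341 TPM, 2.21-fold).

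Set beside other genes of the pathway, the 9 genes had a high median in TPM by merged exon length (132.5). The core list (Drosha, Dgcr8, Xpo5, Ran, Dicer1, Tarbp2, Prkra and Ago1 to Ago4) had a median of 45.99 TPM, a list of 12 partners and paralogs 58.4, and a list of 22 other reported regulators of primary transcripts 67.1. Without a length the gap was smaller, with a median of 183.7 CPM for the 9 genes. The core list had 164.0, the partners and paralogs 128.8 and the other regulators 178.6 CPM. Dicer1, the ribonuclease of the next step, had 30.5 and 29.99 TPM. Of the partners and paralogs the helicases Dhx9 (160 TPM) and Ddx21 (143) and the Erh partner Poldip3 (135) were highest and Ncbp3 (9.30) and the Erh partner Ciz1 (7.90) lowest. Of the other regulators Hnrnpa2b1 (562 TPM), an RNA-binding protein reported to read marked primary transcripts, Hnrnpa1 (267) and Trp53 (266) were highest, while the RNA-editing enzyme Adarb1 (3.48) was lowest. The lists were chosen for known roles, so their medians describe them and no more.

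The libraries were then compared with each other over all 18198 genes: a gene's reads in B, out of its reads in both, were set against the share that the scaled library sizes predict (exact binomial test, two-sided). With 1 library on each side this weighs counting error only and has no replicate check. Of the 9 genes 1 was called, Safb2, where 2.29% of all tested genes were, 1.3% higher in B and 0.989% higher in A, and 9.27% of the 3289 genes with at least as many reads as Safb2. Safb2 had 78.4 CPM in A and 70.9 in B. Its log2 ratio (B over A) was -0.14, with a 95% counting interval from -0.22 to -0.065 (adjusted p = 0.0224, exact binomial test with Benjamini-Hochberg adjustment). The call was lost when the trend with GC content was removed over the 13551 genes with at least 100 reads (log2 ratio -0.083, adjusted p = 0.463, exact binomial test). With the trend kept over those same genes it was made (adjusted p = 0.0169), with 1 of 9 members and 3.31% of genes called. It was also lost in edgeR's exact test with the dispersion estimated over both libraries. That dispersion treats A and B as 1 group, so their differences enter the noise estimate, and this loss decides nothing about Safb2. With the GC trend removed, with that dispersion, and with an assumed coefficient of variation of 0.1, 0 of the 9 genes were called, beside 1.09%, 0.0604% and 0.0055% of the genes tested. The fibroblast markers Col3a1 and Col1a2 were also lower in B, with log2 ratios of -2.24 and -1.67. The summed level of the 10 markers, most of it Fn1, was 1583 CPM in A and 1567 in B, 0 of them lacked reads in both libraries, and their part in the Safb2 value was not tested.

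The other 8 genes missed the threshold, with log2 ratios between -0.048 (Srrt, adjusted p = 0.236, exact binomial test) and 0.043 (Tardbp, 0.106, the same test). A difference this small can still exceed counting error at this depth, and the counting intervals of Ddx5 (0.012 to 0.055), Ddx17 (0.012 to 0.067), Tardbp (0.014 to 0.073) and Srrt (-0.087 to -0.0087) did not include 0. With TMM factors over all genes, also added with the data in view, Ddx5, Ddx17 and Tardbp were called too, beside 2.54% of all genes tested, and with DESeq2 size factors Ddx5 was, beside 2.34%. Well-read genes are called more often: in the main test 9.27% of the 3289 genes with at least as many reads as Safb2 were. That share was not computed for these scalings. The median size of the log2 ratio, without its sign, was 0.043 for the 9 genes, against 0.0800 over all tested genes and 0.033 over the 3289 well-read ones.

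The 9 ratios were spread out along the GC content of the transcripts. The 4 genes that were lower in B, Safb, Srrt, Khsrp and Safb2, had longest transcripts of 54.2% to 57.9% GC, and the 5 that were higher in B, Tardbp, Ddx5, Ncbp1, Erh and Ddx17, 41.8% to 49.7%. Over all genes with at least 100 reads the median log2 ratio ran from 0.046 in the lowest of 20 GC bins to -0.083 in the highest. With that trend removed, the ratios of the 8 genes other than Safb2 lay between -0.029 (Safb) and 0.036 (Erh), and Khsrp went from -0.043 to 0.0015.

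**Figure D4:**
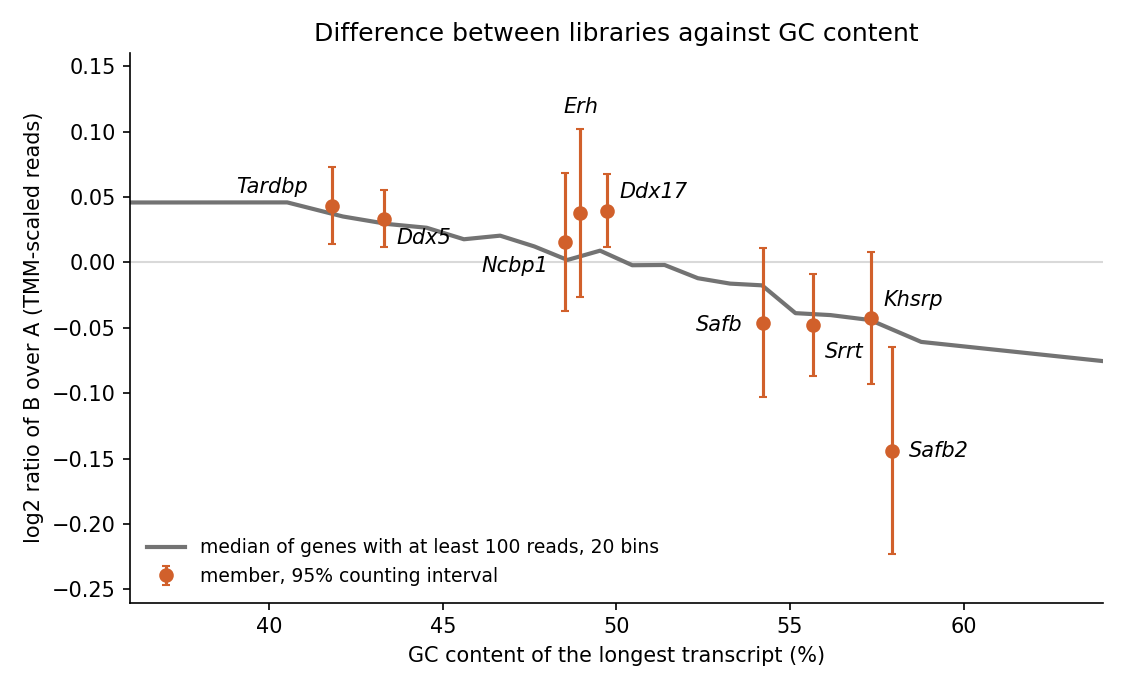
Log2 ratio of B over A for each accessory factor with its 95% counting interval, against the GC content of its longest transcript, and the median over genes with at least 100 reads in 20 GC bins (line; the outer bins run past the axis). Tardbp and Ddx5 lie near the line above 0, Srrt and Khsrp near it below 0, and Safb2 (-0.14) is the lowest.

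Among the pathway lists, 1 of 11 core genes was called (Ran, the exporter's GTPase, log2 ratio 0.047, adjusted p = 0.0447 in the exact binomial test), 0 of 12 partners and paralogs, and 3 of 22 other regulators, all higher in B, beside 2.29% of all tested genes. Of the 3289 genes with at least as many reads as Safb2, 9.27% were called. Among the called regulators were the RNA-binding proteins Hnrnpa2b1 (log2 ratio 0.085) and Taf15 (0.13). Their adjusted p in the exact binomial test with the GC trend removed was 1.02e-06 and 0.00232, while Ran lost its call there (log2 ratio 0.035, adjusted p = 0.308). In edgeR's exact test with the common dispersion all 3 named genes lost it, but that dispersion came from A and B as 1 group.

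Safb and Safb2 are neighbours on chromosome 17. Ncbp1 and Erh also have a neighbour transcribed away from them, Tstd2 and Slc39a9, which overlap them by 82 and 459 exon bases. Safb and Safb2 are transcribed away from each other, and 239 bases lie between their annotated gene ends on GRCm38. Their RefSeq promoter windows, 250 bases before to 50 after each start, overlap by 104 bases, and are shown because this stretch lies before both RefSeq starts while the levels of the genes differ, Safb being 2.09 and 2.24 times Safb2 in TPM. Capitals mark the shared stretch, which each line gives on its own gene's strand, chr17:56584732-56585031 on the plus strand for Safb and chr17:56584536-56584835 on the minus strand for Safb2.
Safb: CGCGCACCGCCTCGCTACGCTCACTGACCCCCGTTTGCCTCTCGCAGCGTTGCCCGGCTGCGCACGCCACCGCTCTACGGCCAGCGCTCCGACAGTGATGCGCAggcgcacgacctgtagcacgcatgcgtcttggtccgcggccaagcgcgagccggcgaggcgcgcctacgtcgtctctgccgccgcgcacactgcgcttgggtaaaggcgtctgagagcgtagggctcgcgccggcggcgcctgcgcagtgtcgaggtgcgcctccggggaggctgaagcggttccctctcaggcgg
Safb2: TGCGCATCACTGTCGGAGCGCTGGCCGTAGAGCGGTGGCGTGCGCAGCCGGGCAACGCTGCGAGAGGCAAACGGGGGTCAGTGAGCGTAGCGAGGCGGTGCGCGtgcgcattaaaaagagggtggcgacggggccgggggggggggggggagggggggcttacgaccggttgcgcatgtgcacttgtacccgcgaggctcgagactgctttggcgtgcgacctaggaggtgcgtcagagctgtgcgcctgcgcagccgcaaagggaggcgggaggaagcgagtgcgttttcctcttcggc

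All 9 genes matched RefSeq promoter entries, 12 in all since Ddx5 has 3 and Ddx17 2. The 12 windows held 13 (Erh) to 47 (Safb) CpG dinucleotides, against a median of 7 over 32851 windows of the same length. The letters CCGGAAG, the core bound by ETS factors, were found on either strand in 4 of the 12 windows (Ddx5, Ddx17, Ncbp1 and Erh) and in 8.86% of all windows. The letters TATAAA occurred in 3 of the 12 windows (Ddx5, Ddx17 and Ncbp1) and in 13.6% of all windows. Both motifs were chosen after the sequences were seen, and a match is a description of letters only.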

How the data were processed

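Poly-A RNA of 2 libraries labelled Drosha knockout ES cells (1 group) was measured. The deposited files hold the authors' raw counts of reads per Ensembl gene, 1 file for each library. The submitters' processing notes name the tools STAR 2.4.2a and featureCounts 1.4.5-p1 and the build mm10, without roles. The annotation release and the settings of the counting are unknown. GENCODE M21 (GRCm38, which mm10 equals) gave symbols, positions, lengths and GC content for 97.5% of IDs; the others held 0.163% of counts.

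TMM factors (edgeR 4.0.16, R 4.3.3) over genes with at least 10 reads scaled the counts. A count of 0 allows up to 0.102 CPM in A and 0.0711 in B (3 counts). TPM used merged exon lengths. The exact binomial test (scipy 1.17.1, Benjamini-Hochberg, threshold 0.05) was tested on simulated data, and log2 ratios had 0.5 reads added. Intervals are exact (Clopper-Pearson, 95%). The libraries differed by more than sampling noise (chi-square 37788 over 18198 genes), which does not show that they are separate cultures. In each SD, n counts libraries. Alternatives were other scalings (DESeq2 1.42.0 among them), minimums of 1 and 50 reads, edgeR's exact test, removal of the GC trend (genes with at least 100 reads), other lengths, 0.5 and 5 CPM, and each library alone. Members and lists were chosen with earlier results of these data known. Named are all 9 members, Drosha, Dgcr8 and Dicer1, genes of the 2 further pathway lists that were called or are the 3 highest or 2 lowest in TPM, overlapping genes and pseudogenes of members that have reads, and 4 marker genes. Ran, Ncbp2, Fn1, Thy1, Gm10131, Gm47879, Mir3064 and Gm25994 were named after their values were seen. Some genes that this rule names are not reported here. Protein sequences were not used here.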

Additional observations from a re-analysis of the deposited data

How the results depend on the processing

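Calls between the libraries depended on the processing. The main test called 417 genes, 56.8% of them higher in B, and scaling by total counts 422, 42.7% of them higher in B, with DESeq2 size factors at 62.0% (426 genes) and TMM factors over all genes at 67.2% (463 genes). Removal of the GC trend left 13551 genes to test: 148 were called, against 448 of the same genes with the trend kept, a check added with the data in view. By edgeR's exact test with the common dispersion 11 genes were called, and with an assumed coefficient of variation of 0.1 it was 1. Of the 9 members 1 was called; the number was 2 with DESeq2 size factors (2.34% of all genes tested), 4 with TMM factors over all genes (2.54%), and 0 with the GC trend removed and in both edgeR tests. In the main test 9.27% of the 3289 genes with at least as many reads as Safb2 were called. Safb2, called in the main test, stood at -0.083 and Khsrp at 0.0015 with the GC trend removed. Of the 36 pairs of members, 33 kept their order with the longest transcript, 32 with the mean coding transcript and 32 with the copies' reads added; with 1 library left out it was 35 to 36. The ratio of Ddx5 to Ddx17 was 2.20 with the longest transcript, 3.73 with the mean coding transcript and 2.37 with the copy's reads added, and Safb to Safb2 was 1.74 and 1.37; with 1 library left out they were 2.20 to 2.21 and 2.09 to 2.24. All 9 members passed 0.5, 1 and 5 CPM, and each library alone gave a median of 181 to 186 CPM. Depth did not limit the levels. No paired analysis was possible because there is 1 group.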
